A study of Mus musculus with 52 samples.

Results

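The whole choroid plexus was compared between mice with and without stabilized beta-catenin in their endothelial cells (ECs). The comparison rests on the RNA-seq libraries of the input fraction of a RiboTag experiment, which are 4 of the 52 samples of the series, 2 labelled Bcat and 2 labelled WT, and were chosen by tissue, fraction and genotype alone. RiboTag is a knock-in allele of the ribosomal protein gene Rpl22 that places an HA tag on the ribosomes of cells in which Cre is active. Input is the part of each tissue homogenate that was set aside before the tagged ribosomes were precipitated, so that it holds RNA of the epithelium, the stroma, the vessels and any other cells in the dissection, and the precipitated part is called bound. WT mice carried RiboTag and Pdgfb-CreER, a Cre recombinase expressed from Pdgfb regulatory sequences in ECs and activated by 4-hydroxytamoxifen (4HT), and Bcat mice carried in addition the allele named BcatEx3fl in the labels, from which Cre removes the part of Ctnnb1 that encodes the degradation signal of beta-catenin. Mice of both genotypes received 4HT, so that the tag, the Cre and the drug are common to all 4 libraries and the stabilizing allele is what the genotypes are labelled to differ in. The mice were adults labelled male, and the choroid plexi of several animals were pooled for each library, so that a replicate is a pool and not an animal.

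The choroid plexus is a sheet of secretory epithelium folded over a stroma of fibroblasts, macrophages and capillaries. The epithelium makes cerebrospinal fluid and carries the blood-cerebrospinal fluid barrier in its own tight junctions, whereas the capillaries beneath it are fenestrated and lack the tight junctions and transporters of the blood-brain barrier (BBB). Beta-catenin is the effector of canonical Wnt signaling, which induces and maintains BBB properties in most brain ECs by acting with transcription factors of the TCF and LEF family.

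The 4 libraries held between 7771798 and 11101783 estimated reads, of which mitochondrial transcripts took 15.99% and 16.2% in WT and 17.8% and 18.1% in Bcat. Genes at 1 TPM or more numbered 9458 and 9623 in WT and 9861 and 10035 in Bcat, and the part of these differences in the results was not tested. The epithelial secretory product Ttr (transthyretin) alone took 10.5% to 12.2% of the reads of a library, and the 10 most abundant genes together 46.2% to 48.5%, so that genes of rare cells were measured on few reads. Sex-linked genes went against the label of male in part. Xist, the RNA of the inactive X chromosome, was present in all 4 libraries, with 28 and 74 reads in WT and 178 and 342 reads in Bcat, together with the Y-linked gene Ddx3y, with 687 and 581 reads in WT and 694 and 172 in Bcat. Each pool thus held both Xist and Y-linked reads, and Bcat replicate 2 had the highest Xist and the lowest Ddx3y of the 4. Xist was higher in both Bcat than in both WT libraries, and the part of the sex makeup of the pools in the results was not tested. In the cortex input libraries, both WT replicates had 0 Xist reads and 1424 and 1562 Ddx3y reads, and both Bcat replicates had 108 and 135 Xist reads and 0 Ddx3y reads, so that genotype and sex cannot be told apart in cortex. Neuronal and oligodendrocyte genes varied between the choroid plexus libraries as well, with values that overlapped between the genotypes. The summed level of 14 neuronal genes was 451 and 145 CPM in WT and 116 and 296 CPM in Bcat, and that of 10 oligodendrocyte genes was 142 and 123 CPM in WT and 139 and 313 CPM in Bcat. None of the neuronal genes was called by edgeR or DESeq2 or had an unadjusted p under 0.05, and their median log2 fold change was -0.51, or -1.36 without Bcat replicate 2, with the smallest p for Gad1 at -0.85. CPM is the count of a gene relative to the size of its library, here scaled by TMM factors, and compares 1 gene between libraries, whereas TPM, which corrects for transcript length, is used to compare levels between genes.

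**Figure D1:**
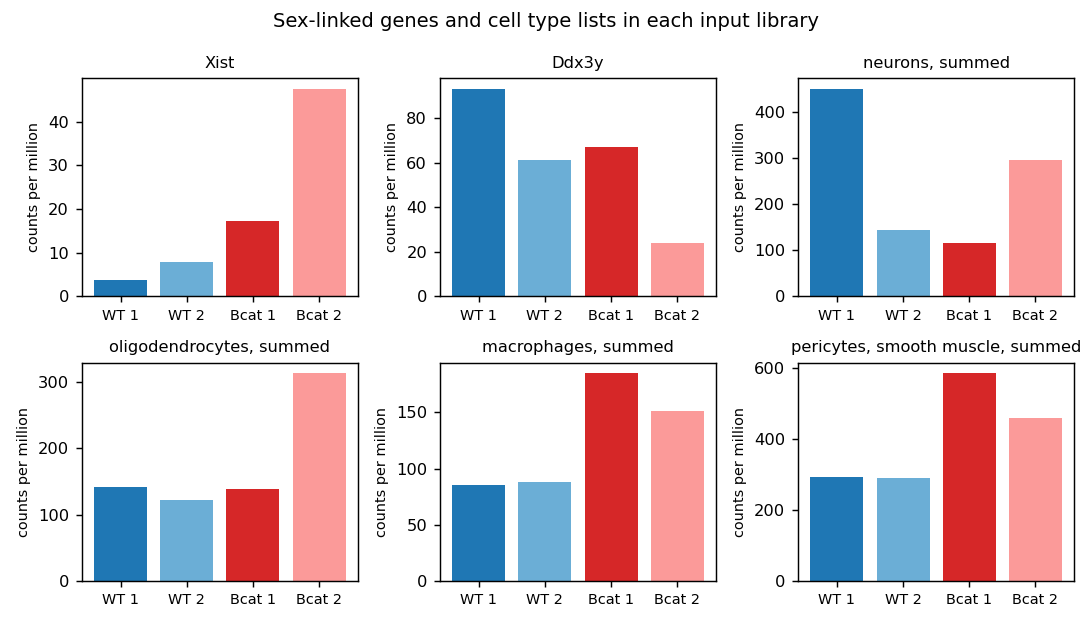
Each panel gives the CPM (y axis, linear, from 0) of 1 gene or the summed CPM of 1 marker list in the 4 choroid plexus input libraries (x axis), with 1 bar per library. Xist was highest in Bcat replicate 2, with 47.6 CPM, where Ddx3y was lowest, with 23.9 CPM, and the neuronal sum was highest in WT replicate 1. Xist and the macrophage and mural sums were higher in both Bcat libraries than in both WT libraries.

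The targeted gene was not called by edgeR or DESeq2 at the level of whole-gene reads, although both Bcat values lay below both WT values. Ctnnb1 was at 289 and 302 CPM in WT and 261 and 261 CPM in Bcat, a log2 fold change of -0.18 ± 0.11 (SE; edgeR adjusted p = 0.779). Because the allele removes a part of the transcript and acts in ECs only, a sum over all transcripts of the gene in whole tissue does not check the genotype.

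Among 16085 genes tested with edgeR's quasi-likelihood test, 16 were higher in Bcat choroid plexus (0.0995% of the genes tested) and 1 was lower (0.00622%) when called at 2-fold or more and with an adjusted p below 0.05. Higher were the BBB genes Cldn5, Abcb1a and Spock2, the Wnt feedback inhibitor Apcdd1, the matrix genes Fn1 and Col15a1, the secreted factors Igfbp5, Apod and Cxcl12, the macrophage lysozyme Lyz2, and Mal, Gatm, B4galt5, Net1, St8sia4 and Gm14288. At an unadjusted p under 0.05, 717 genes were higher (4.46%) and 475 were lower (2.95%), and the median log2 fold change over all genes was -0.03. The number of calls differed with the library left out. With 2 pools per genotype, a fit without 1 library leaves 1 pool in a genotype. In such fits the log2 fold change ranged from 2.18 to 2.38 for Fn1, from 3.06 to 3.17 for Cldn5 and from 2.9997 to 4.73 for Apcdd1. Without Bcat replicate 2, the library with the most Xist, no gene was called, with a smallest adjusted p of 0.0512 and 516 genes higher and 455 lower at an unadjusted p under 0.05. Without WT replicate 1 no gene was called either, without WT replicate 2 the count was 0 higher and 1 lower, and without Bcat replicate 1 it was 30 higher and 2 lower. Both Bcat libraries were above both WT libraries for 18.2% of all genes tested and below them for 24%. For each of the 16 genes called higher the CPM values did not overlap. This is likely for genes chosen by a small p and a 2-fold difference, and so adds no support. The TPM values did not overlap for 14 of the genes called. These 16 genes kept their direction in each of these fits, and DESeq2 called all 16, among 111 higher (0.69%) and 18 lower (0.112%). With an offset for transcript length, however, none of the 16 was called, with a smallest adjusted p of 0.114 over all genes. Under that offset the log2 fold change was larger for Fn1 (2.85 instead of 2.28), Apod (2.45 instead of 2.003), B4galt5, Lyz2, Net1, Gatm and St8sia4. It was smaller for the others of the 16, among them Cxcl12 with 0.69 instead of 1.12 and Abcb1a with 2.22 instead of 2.86. The edgeR adjusted p of Cxcl12 and Abcb1a was then 0.478 and 0.795. In bulk tissue, a change in the number of cells of a type and a change in RNA per cell cannot be told apart.

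**Figure D2:**
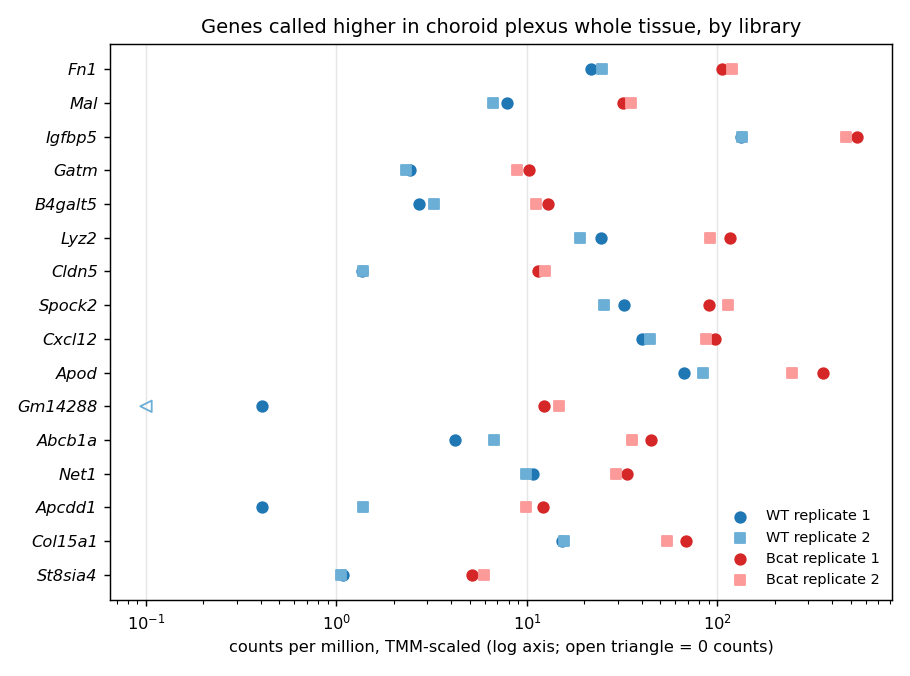
The CPM of the 16 genes called higher (rows, in order of their p) is shown in each library (log x axis), in blue for WT and red for Bcat, with circles for replicate 1 and squares for replicate 2. Both Bcat libraries lay above both WT libraries for all 16 genes, from St8sia4 at 5.13 and 5.98 CPM in Bcat to Igfbp5 at 539 and 474 CPM.

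Of the genes called, 3 are in the BBB list. Cldn5, which encodes the main claudin of BBB tight junctions (chromosome 16, 18776847 to 18778262, plus strand, GRCm38), was at 1.36 and 1.37 CPM in the WT libraries and at 11.4 and 12.4 CPM in the Bcat libraries. This is a log2 fold change of 3.12 ± 0.30 (SE; edgeR adjusted p = 0.0203), or 8.66-fold, on 10 and 13 reads in WT and 118 and 89 in Bcat. Abcb1a, which encodes the efflux pump P-glycoprotein, was at 4.21 and 6.74 CPM in WT and at 44.8 and 35.5 CPM in Bcat, a log2 fold change of 2.86 ± 0.33 (edgeR adjusted p = 0.0383). Its summed TPM, which depends on how Salmon divides reads between transcripts of different length, overlapped between the genotypes, with 0.212 and 3.74 in WT and 15.03 and 1.99 in Bcat. Spock2, a proteoglycan gene of the BBB list (chromosome 10, 60106219 to 60135198, plus strand), was at 32.4 and 25.5 CPM in WT and 90.1 and 113 CPM in Bcat, a log2 fold change of 1.81 ± 0.18 (edgeR adjusted p = 0.0211). All these genes were low in whole tissue, and Cldn5 reached 1.64 and 1.77 TPM in Bcat, against 32594 and 40907 TPM for Ttr.

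Of the 48 BBB genes tested from a list of 49, edgeR called 3 higher and none lower, DESeq2 called 10 and the edgeR fit of the 4 choroid plexus libraries alone 6. Of all genes, these 3 fits called 0.0995%, 0.69% and 0.302% higher. In the list, 23 were higher and 1 lower at an unadjusted p under 0.05, against 4.46% and 2.95% of all genes. The median log2 fold change was 0.54, or 0.55 without Bcat replicate 2. Of the 48 genes 34 were above 0, against 44.4% of all genes, and 14 below. Both Bcat libraries were above both WT libraries for 28 and below them for 9, against 18.2% and 24% of all genes. The summed level of the list overlapped, with 5974 and 5795 CPM in WT and 5868 and 5802 CPM in Bcat. In WT, 16 of the 49 genes were enriched at least 2-fold in bound over input, against all 30 pan-endothelial genes and 8.67% of genes tested. Below the threshold lay Slc7a5, a subunit of the large neutral amino acid transporter, at 16.3 and 18.8 CPM in WT and 48.3 and 47.6 CPM in Bcat (log2 fold change 1.45, edgeR adjusted p = 0.0524). Mfsd2a, a lipid transporter that suppresses transcytosis in BBB ECs, was at 1.63 and 1.05 CPM in WT and 6.19 and 9.18 CPM in Bcat (log2 fold change 2.52, edgeR adjusted p = 0.0901). Slc2a1, the glucose transporter GLUT1, was at 64.6 and 66.9 CPM in WT and 105 and 101 CPM in Bcat (log2 fold change 0.64, edgeR adjusted p = 0.29). For these 3 genes the genotypes did not overlap, but none was called by edgeR, whereas DESeq2 called Slc7a5 (adjusted p = 7.2e-09) and Mfsd2a (adjusted p = 3.4e-06). Slc35f2 had 0 reads in both WT libraries and 21 and 7 reads in the Bcat libraries (edgeR adjusted p = 0.241). With WT set at a floor of 3 reads, it was 8.98-fold higher over the group. This value takes the Bcat reads as exact, and copies of 1 molecule are not told apart, so that it is no lower limit.

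The list of fenestrated and highly permeable ECs gave no call by edgeR or DESeq2 among its 17 genes tested, with a median of -0.20. At an unadjusted p under 0.05, 1 gene was higher and 4 were lower, against 4.46% and 2.95% of all genes. Plvap, which encodes the protein of fenestral diaphragms, was at 38.4 and 33.9 CPM in WT and 24.2 and 21.97 CPM in Bcat, a log2 fold change of -0.64 ± 0.17 (SE; edgeR adjusted p = 0.409). Both Bcat values lay below both WT values for Plvap. Igfbp3, an insulin-like growth factor binding protein that had the smallest p of this list, was at 31.2 and 26.0 CPM in WT and 19.1 and 15.9 CPM in Bcat (log2 fold change -0.71, edgeR adjusted p = 0.339). The 29 pan-endothelial genes tested had a median of 0.47, with no call by edgeR and 2 by DESeq2, which called 0.69% of all genes higher. At an unadjusted p under 0.05, 6 were higher and none lower, against 4.46% and 2.95% of all genes. The smallest p of the list was that of Cyyr1, with a log2 fold change of 0.95. Kdr, the main VEGF receptor of ECs, was at 56.5 and 53.4 CPM in WT and 49.7 and 45.6 CPM in Bcat (log2 fold change -0.20, edgeR adjusted p = 0.781). Cdh5, the cadherin of EC junctions, was at 21.0 and 17.4 CPM in WT and 31.1 and 27.4 CPM in Bcat (log2 fold change 0.61, edgeR adjusted p = 0.578). Pecam1, a general EC adhesion molecule, was at 72.6 and 75.4 CPM in WT and 68.6 and 78.8 CPM in Bcat and overlapped between the genotypes (log2 fold change -0.01, edgeR adjusted p = 1). Of the 29 genes 23 were above 0, against 44.4% of all genes, and 6 below. Both Bcat libraries were above both WT libraries for 17 and below them for 1, against 18.2% and 24% of all genes. The summed level of the list, 473 and 431 CPM in WT and 588 and 521 CPM in Bcat, differed less than Cldn5 did. Among 16 genes of the VEGF, apelin and angiopoietin pathways tested none was called by either tool or had an unadjusted p under 0.05. Flt1, a VEGF receptor, had a log2 fold change of 0.49, and Vegfa was at 80.2 and 78.1 CPM in WT and 81.9 and 81.3 CPM in Bcat.

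Apcdd1 encodes a membrane protein that binds Wnt and inhibits its signaling and is itself induced by Wnt. It was the only one of 19 Wnt target genes tested to be called by edgeR, and DESeq2 called 2. These tools called 0.0995% and 0.69% of all genes higher. Apcdd1 was at 0.407 and 1.37 CPM in WT and 12.2 and 9.87 CPM in Bcat, on 3 and 13 reads against 126 and 71. This is a log2 fold change of 3.56 ± 0.43 (SE; edgeR adjusted p = 0.0484). The value was 2.9997 without WT replicate 1 and 4.73 without WT replicate 2, and neither fit called the gene. The list had a median of 0.20, or 0.03 without Bcat replicate 2. At an unadjusted p under 0.05 it held 4 genes higher and none lower, against 4.46% and 2.95% of all genes. Nkd1, another feedback inhibitor, was at 3.66 and 3.79 CPM in WT and 11.0 and 10.0 CPM in Bcat (log2 fold change 1.496, edgeR adjusted p = 0.105) and was called by DESeq2 (adjusted p = 0.00124). Axin2, a scaffold of the complex that degrades beta-catenin and a widely used Wnt reporter gene, was at 55.1 and 50.4 CPM in WT and 47.1 and 53.0 CPM in Bcat and overlapped (log2 fold change -0.08, edgeR adjusted p = 0.984). Lef1, the transcription factor that binds beta-catenin, was at 34.1 and 26.5 CPM in WT and 34.3 and 35.3 CPM in Bcat, and a difference was not detectable here (log2 fold change 0.20, edgeR adjusted p = 0.851). Of the other Wnt components tested, none of 15 ligands and activators, 21 receptors and 23 core genes was called by edgeR or DESeq2. These lists held 0, 1 and 1 genes higher and 2, 0 and 1 lower at an unadjusted p under 0.05, against 4.46% and 2.95% of all genes. The smallest p of these lists belonged to Wnt7a, which had at most 4 reads in a library, to the receptor Fzd1, with a log2 fold change of 0.68, and to the cadherin Cdh2, with -0.36. Among 18 Wnt inhibitors Apcdd1 was the single call by edgeR, with 2 calls by DESeq2, and the secreted inhibitor Sostdc1, which was abundant in the tissue, was at 1042 and 960 CPM in WT and 818 and 832 CPM in Bcat (log2 fold change -0.28, edgeR adjusted p = 0.896). Wif1, a secreted Wnt inhibitor, had between 3 and 7 reads in a library, which is too few for a comparison.

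Promoters are shown for the genes called here because TCF and LEF factors recognize short motifs in DNA. RefSeq promoter sequences (GRCm38.p6) of 300 bases, from 250 before to 50 after the start site, matched 14 of the 16 genes called higher. They were searched on both strands for the letters TTCAAAG and ATCAAAG, which cannot match at the same position, and 4 of the 14 genes held at least 1 match, against 9.88% of all 27025 genes with a promoter and 8.65% of all 32851 promoters. A match describes letters and not binding. The promoters of Spock2, Cxcl12 and Col15a1 are printed with the matches in capitals, and that of Cldn5, in which no match was found, in lower case throughout. All are on the plus strand, at chr10:60106007-60106306 for Spock2, chr6:117168285-117168584 for Cxcl12, chr4:47207762-47208061 for Col15a1 and chr16:18776597-18776896 for Cldn5.
Spock2: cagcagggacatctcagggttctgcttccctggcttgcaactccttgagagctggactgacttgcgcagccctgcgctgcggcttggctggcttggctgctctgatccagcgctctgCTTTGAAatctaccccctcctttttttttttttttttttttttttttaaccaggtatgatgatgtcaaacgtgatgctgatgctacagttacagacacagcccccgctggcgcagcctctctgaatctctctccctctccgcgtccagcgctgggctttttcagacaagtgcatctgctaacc
Cxcl12: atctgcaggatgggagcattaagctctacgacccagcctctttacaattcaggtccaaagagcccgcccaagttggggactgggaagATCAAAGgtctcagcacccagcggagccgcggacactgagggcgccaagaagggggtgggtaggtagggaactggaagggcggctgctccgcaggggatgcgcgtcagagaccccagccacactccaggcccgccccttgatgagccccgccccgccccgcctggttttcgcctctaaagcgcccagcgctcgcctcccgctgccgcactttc
Col15a1: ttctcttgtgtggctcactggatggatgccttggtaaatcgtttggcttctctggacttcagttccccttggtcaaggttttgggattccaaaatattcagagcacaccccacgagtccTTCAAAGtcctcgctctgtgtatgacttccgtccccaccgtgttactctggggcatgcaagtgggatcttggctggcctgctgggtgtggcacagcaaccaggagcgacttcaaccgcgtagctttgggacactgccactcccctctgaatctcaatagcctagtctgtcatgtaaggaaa
Cldn5: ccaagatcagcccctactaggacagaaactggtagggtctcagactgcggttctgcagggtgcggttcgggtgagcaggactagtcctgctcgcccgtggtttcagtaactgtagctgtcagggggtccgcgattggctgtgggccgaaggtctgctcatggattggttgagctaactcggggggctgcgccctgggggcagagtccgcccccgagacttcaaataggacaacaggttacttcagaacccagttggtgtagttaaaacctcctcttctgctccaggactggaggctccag
The first base of the match lies at position -133 from the start site in Spock2, -163 in Cxcl12 and -131 in Col15a1. The fourth gene, Abcb1a, held 2 matches, but its RefSeq start lies 92986 bases upstream of the gene's start in the annotation used for the counts, so that its sequence is not shown.

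The genes called in the stromal fibroblast list were Fn1 and Col15a1, which both encode proteins of the extracellular matrix. Fn1, which encodes fibronectin (chromosome 1, 71585520 to 71653200, minus strand), had the smallest p of all genes. It was at 21.6 and 24.7 CPM in WT and 106 and 119 CPM in Bcat, a log2 fold change of 2.28 ± 0.17 (SE; edgeR adjusted p = 0.0158), or 4.84-fold. Col15a1, a collagen that lies beside basement membranes, was at 15.3 and 15.6 CPM in WT and 68.1 and 54.1 CPM in Bcat, a log2 fold change of 1.98 ± 0.24 (edgeR adjusted p = 0.0486). The WT values of these genes lay close together, and those of Bcat lay above them in each. Of 29 stromal fibroblast genes tested edgeR called these 2, against 5 by DESeq2 and 5 in the fit of the 4 libraries alone. The shares of all genes called higher were 0.0995%, 0.69% and 0.302%. In the list, 10 were higher and none lower at an unadjusted p under 0.05, against 4.46% and 2.95% of all genes. The median of the list was 0.32, or 0.39 without Bcat replicate 2. Col1a1, the main fibrillar collagen of fibroblasts, was at 73.8 and 63.3 CPM in WT and 99.0 and 87.3 CPM in Bcat (log2 fold change 0.44, edgeR adjusted p = 0.547). Spp1, which encodes the secreted protein osteopontin, was at 13.3 and 20.5 CPM in WT and 96.9 and 82.3 CPM in Bcat (log2 fold change 2.39, edgeR adjusted p = 0.105). The 20 basement membrane genes tested gave no call by edgeR or DESeq2 and had a median of 0.04. Of these 20, 1 was higher and none lower at an unadjusted p under 0.05, against 4.46% and 2.95% of all genes. The laminin gene Lama4 was the one higher, with a log2 fold change of 0.99.

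Secreted factors with large differences included Igfbp5, a binding protein of insulin-like growth factors, at 132 and 134 CPM in WT and 539 and 474 CPM in Bcat (log2 fold change 1.93 ± 0.17, SE; edgeR adjusted p = 0.017). Apod, a lipocalin that carries lipids, was at 66.6 and 83.9 CPM in WT and 357 and 247 CPM in Bcat (log2 fold change 2.003 ± 0.22, edgeR adjusted p = 0.0339). Cxcl12, a chemokine for leukocytes and progenitor cells, was at 40.03 and 44.1 CPM in WT and 96.6 and 87.0 CPM in Bcat (log2 fold change 1.12 ± 0.12, edgeR adjusted p = 0.0303). Igfbp5 had the highest CPM of the genes called higher, and Cxcl12 the smallest difference. In bound RNA of WT choroid plexus, Igfbp5 and Apod were not enriched over input, with log2 ratios of -0.59 and -1.70, whereas Cxcl12 had a log2 ratio of 1.35. Of the 16 genes called higher 11 were enriched at least 2-fold in bound over input in WT (edgeR adjusted p below 0.05), against 8.67% of all genes tested.

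All 16 genes tested of pericytes and smooth muscle had log2 fold changes above 0, against 44.4% of all genes, with a median of 0.59. None was called by edgeR and 1 by DESeq2, which called 0.69% of all genes higher. Of these 16, 5 were higher and none lower at an unadjusted p under 0.05, against 4.46% and 2.95% of all genes. Their summed level was 292 and 291 CPM in WT and 585 and 459 CPM in Bcat. Rgs5, a regulator of G protein signaling that marks pericytes, made up most of this difference, with 101 and 116 CPM in WT and 307 and 228 CPM in Bcat (log2 fold change 1.30, edgeR adjusted p = 0.0868). Pdgfrb, the receptor through which ECs recruit pericytes, was at 50.1 and 50.0 CPM in WT and 78.4 and 53.8 CPM in Bcat (log2 fold change 0.41, edgeR adjusted p = 0.689). The 2 Bcat values for Pdgfrb were further apart than the nearer of them was from WT.

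Of 20 macrophage genes tested 17 were above 0, against 44.4% of all genes. The 3 below 0 were Cd163, Pf4 and Lyve1, with log2 fold changes of -0.83, -0.81 and -0.25. Lyz2, the lysozyme of macrophages and monocytes, rose from 24.4 and 19.1 CPM in WT to 116 and 91.2 CPM in Bcat, a log2 fold change of 2.26 ± 0.21 (SE; edgeR adjusted p = 0.017). Reads of Lyz2 and its near-identical neighbor Lyz1, like those of Abcb1a and Abcb1b, can be divided between the copies in more than 1 way. The macrophage list, which does not hold Lyz2, gave no edgeR call among 20 genes and 6 calls by DESeq2, which called 0.69% of all genes higher. At an unadjusted p under 0.05, 10 were higher and none lower, against 4.46% and 2.95% of all genes. The list had a median of 0.92. Its summed level was 85.6 and 87.8 CPM in WT and 185 and 151 CPM in Bcat. C1qb, a chain of the complement protein C1q, was at 6.92 and 5.79 CPM in WT and 16.6 and 15.02 CPM in Bcat (log2 fold change 1.32, edgeR adjusted p = 0.0857). Csf1r, the receptor on which macrophages depend, was at 13.2 and 14.6 CPM in WT and 20.7 and 19.2 CPM in Bcat (log2 fold change 0.52, edgeR adjusted p = 0.402). Of 12 genes of MHC class II and antigen presentation 10 had enough reads to be tested, with no edgeR call and 1 DESeq2 call. A gene with few or no reads in WT, such as Flt3 with 0 reads in WT and 16 in Bcat, can pass the filter on low counts only through libraries in which it is high, so that the number of tested genes above 0 in such a list is no result. Cd74, the invariant chain of MHC class II, was at 30.8 and 30.8 CPM in WT and 95.1 and 58.8 CPM in Bcat (log2 fold change 1.33, edgeR adjusted p = 0.19). Of other leukocyte genes only 6 of 20 had enough reads to be tested, and Ptprc, the surface protein of all leukocytes, was at 2.85 and 1.69 CPM in WT and 9.49 and 6.40 CPM in Bcat (log2 fold change 1.83, edgeR adjusted p = 0.227). The markers of T cells and B cells Cd3e, Cd3g, Cd8a, Cd79a, Cd79b and Ms4a1 had too few reads to be tested.

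Of 22 inflammation and adhesion genes 11 had enough reads to be tested, and Cxcl12 was the single edgeR call, with 4 calls by DESeq2. These tools called 0.0995% and 0.69% of all genes higher. Some of the 11 had few or no reads in WT. Lcn2, which is induced in inflamed tissue, was at 0.271 and 0.316 CPM in WT and 4.65 and 9.87 CPM in Bcat (log2 fold change 4.56, edgeR adjusted p = 0.293). Timp1, an inhibitor of matrix proteases, was at 0.543 and 0.316 CPM in WT and 5.61 and 5.56 CPM in Bcat (log2 fold change 3.70, edgeR adjusted p = 0.29). For both genes the genotypes did not overlap, on at most 4 reads in a WT library. The chemokine gene Cxcl1 had 0 reads in WT and 33 in Bcat, and the acute phase gene Saa3 0 and 21. Against the floor of 3 reads they were 10.6-fold and 6.74-fold higher over the group, with the Bcat reads taken as exact. Of 20 interferon-induced genes 14 were tested, with no call by edgeR or DESeq2, and the guanylate-binding protein gene Gbp3 had the smallest p, with a log2 fold change of 1.04. Of 16 immediate early genes 15 were above 0, against 44.4% of all genes, with a median of 0.59. At an unadjusted p under 0.05, 4 of them were higher, against 4.46% of all genes, with no edgeR call and 1 DESeq2 call. Their summed level was 109 and 120.4 CPM in WT and 204.0 and 128 CPM in Bcat, so that Bcat replicate 2 lay close to WT. Junb was at 2.85 and 3.58 CPM in WT and 10.6 and 7.51 CPM in Bcat (log2 fold change 1.49, edgeR adjusted p = 0.425).

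Epithelial genes gave no call and lay mostly a little below 0. Among 30 epithelial identity and secretory genes, 19 ion and water transport genes, 18 solute carriers and 15 tight junction genes tested, none was called by edgeR or DESeq2, and the medians were -0.21, -0.14, -0.16 and -0.15. At an unadjusted p under 0.05 these lists held 0, 1, 0 and 0 genes higher and 4, 1, 1 and 1 lower, against 4.46% and 2.95% of all genes. Of the 30 identity genes 27 lay below 0, and the largest difference was -0.63. Both Bcat CPM values lay below both WT values in 23 of the 30 identity genes and 14 of the 19 transport genes, against 24% of all genes. The summed level of the identity list was 178440 and 189652 CPM in WT and 153495 and 166132 CPM in Bcat, and that of the solute carriers 2147 and 2219 CPM in WT and 1915 and 1916 CPM in Bcat. These CPM are scaled by TMM factors of 0.852 and 0.867 in WT and 0.933 and 0.927 in Bcat, a larger factor giving a lower CPM. As an unscaled share of the reads Ttr overlapped, with 11.25% and 12.2% in WT and 10.5% and 11.55% in Bcat. The part of the lower epithelial CPM in the higher stromal, mural and immune values, and that of the scaling in both, was not tested. Ttr was at 34190 and 37342 TPM in WT and 32594 and 40907 TPM in Bcat and overlapped (log2 fold change -0.20 ± 0.86 on the CPM scale, edgeR adjusted p = 0.994). Folr1, the folate receptor that carries folate into cerebrospinal fluid, was at 248 and 319 TPM in WT and 288 and 329 TPM in Bcat. Kcnj13, a potassium channel of the apical membrane, was at 200 and 264 TPM in WT and 269 and 258 TPM in Bcat. Otx2, the transcription factor that specifies the epithelium, was at 29.2 and 47.0 TPM in WT and 44.1 and 38.1 TPM in Bcat. For each of these 3 genes the TPM of the genotypes overlapped, whereas on the CPM scale the log2 fold changes were -0.18, -0.18 and -0.09 (edgeR adjusted p = 0.919, 0.974 and 0.945). Aqp1, the apical water channel, was at 198 and 222 CPM in WT and 239 and 242 CPM in Bcat (log2 fold change 0.19, edgeR adjusted p = 0.952). Cldn2, the claudin of leaky epithelia, was at 259 and 279 CPM in WT and 252 and 228 CPM in Bcat (log2 fold change -0.16, edgeR adjusted p = 0.941). The genes with the smallest p of the 4 lists were Mia, Slc24a4, Slc31a1 and Cldn3, with log2 fold changes of -0.53, 0.76, -0.27 and -0.76. Among 25 genes of cilia and ependyma none was called by either tool, and the median was -0.04. Of these 25, 1 was higher and none lower at an unadjusted p under 0.05, against 4.46% and 2.95% of all genes. The one higher was Dnah5, a dynein chain of motile cilia, with a log2 fold change of 1.496 on few reads.

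**Figure D3:**
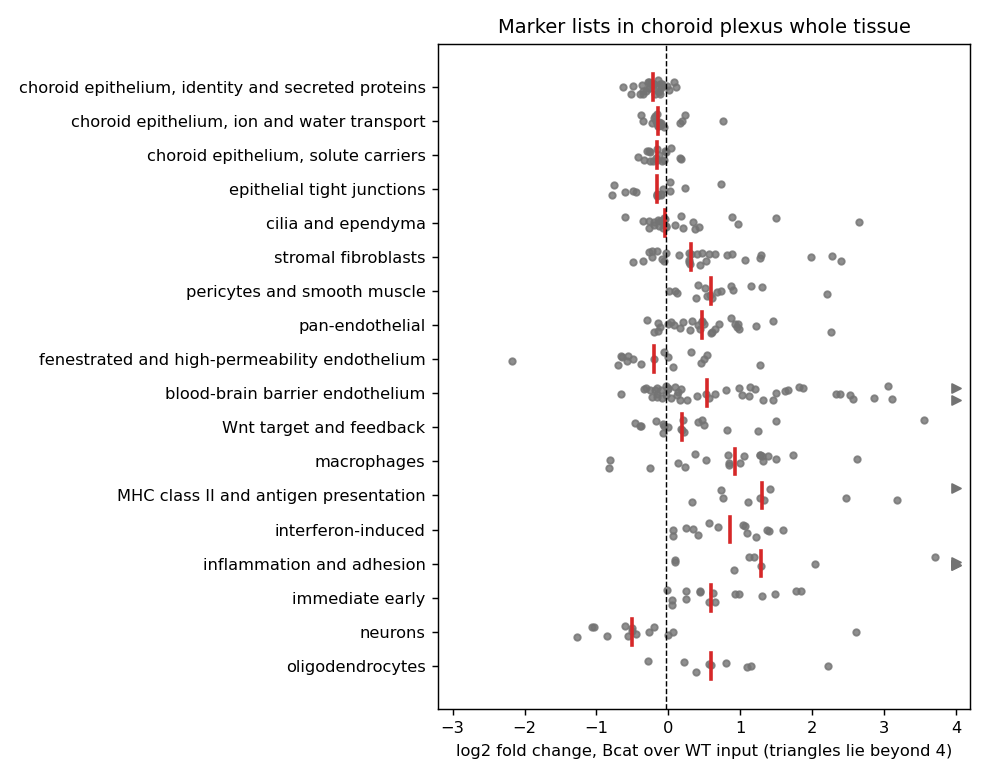
Log2 fold changes of Bcat over WT input (x axis) are shown for the tested members of 18 marker lists (rows), with 1 point per gene, a red bar at the median of the list and a dashed line at the median of all genes, -0.03. The epithelial medians lie between -0.21 and -0.14, those of mural cells and macrophages at 0.59 and 0.92, and the BBB list reaches from -0.65 to 7.62, the latter a fitted value for a gene with 0 reads in WT.

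The remaining genes called higher belong to no single cell type. Mal, a proteolipid of membrane rafts in myelinating and some epithelial cells, was at 7.87 and 6.64 CPM in WT and 31.9 and 35.3 CPM in Bcat (log2 fold change 2.22 ± 0.17, edgeR adjusted p = 0.0158). Mal was the only call among 10 oligodendrocyte genes tested, and the summed level of that list was highest in Bcat replicate 2. Without that library the median of the oligodendrocyte list was -0.13, whereas the log2 fold change of Mal was 2.14. Gatm, the enzyme of the first step of creatine synthesis, B4galt5, a galactosyltransferase of glycolipid synthesis, Net1, an exchange factor for RhoA, and St8sia4, a polysialyltransferase, had log2 fold changes of 2.02, 1.996, 1.61 and 2.36. Of these, Gatm and St8sia4 stayed under 1 TPM in all 4 libraries, and St8sia4 was not called in the fit of the 4 choroid plexus libraries alone (edgeR adjusted p = 0.0713), which called 42 genes higher (0.302%) and 4 lower (0.0287%). Gm14288 had 3 and 0 reads in WT and 127 and 106 in Bcat, a ratio of 74.7 with a 95% counting interval of 25.3 to 365. Its fitted log2 fold change was 6.16, 5.02 without WT replicate 2, 4.14 with the length offset and 10.58 without WT replicate 1, where WT is left with 0 reads and the fitted value is no bound. It belongs to a family of similar zinc finger genes among which reads can be divided in more than 1 way. In cortex it had 0 reads in both WT libraries and 202 and 275 in Bcat.

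The bound fraction of the same homogenates gives the RNA on tagged ribosomes, and the genes called in input were read in it. In bound RNA, 110 of 16775 genes were higher in Bcat (0.656%) and 33 were lower (0.197%). The fractions of 1 homogenate are not independent of each other, and the difference between input and bound effects was not tested, so that values are given side by side. Spock2 had a bound log2 fold change of 5.41, from 3.81 and 2.50 TPM in WT to 123 and 110 TPM in Bcat, beside 1.81 in input. Apcdd1 had 6.62 in bound, from 0.204 and 0.851 TPM to 37.1 and 44.2 TPM, beside 3.56 in input. Cldn5 had 3.19 in bound, from 4.10 and 5.31 TPM to 37.6 and 44.0 TPM, beside 3.12 in input. Fn1 had 2.45 in bound, from 28.0 and 30.2 TPM to 152 and 155 TPM, beside 2.28 in input. The edgeR adjusted p for these 4 genes in bound was 0.00125, 0.00319, 0.00371 and 0.0156. Col15a1, in contrast, was at 17.9 and 32.1 TPM in WT and 14.9 and 10.4 TPM in Bcat in bound RNA, lower in both Bcat libraries, whereas its bound log2 fold change from the counts was 0.22 (edgeR adjusted p = 0.853), so that the scales differ in direction. Igfbp5, Gatm, B4galt5, Lyz2 and Apod were not called in bound, with log2 fold changes of 1.71, 1.56, 1.63, 1.43 and 1.72.

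Several genes that were called in bound gave small or uncalled differences in input. Nkd1 had a bound log2 fold change of 6.31 (edgeR adjusted p = 0.00194) and Mfsd2a one of 5.95 (edgeR adjusted p = 0.00172), against 1.496 and 2.52 in input. Slc2a1 had 2.97 in bound (edgeR adjusted p = 0.025) and 0.64 in input. The BBB list had a median of 2.14 in bound, with 23 of 49 genes called higher, and 0.54 in input, with 3 of 48. Of all genes, 0.656% were called higher in bound and 0.0995% in input. The pan-endothelial list had medians of 0.83 and 0.47. In WT choroid plexus all 30 pan-endothelial genes were enriched at least 2-fold in bound over input, against 8.67% of genes tested, and so were 14 of 20 macrophage genes, so that the bound fraction was not restricted to RNA of ECs. The macrophage list had a median of 0.17 in bound and 0.92 in input, and the mural list 0.00 and 0.59. Plvap had a log2 fold change of 0.00 in bound, at 84.2 and 124 TPM in WT and 111 and 81.7 TPM in Bcat, and its values overlapped.

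**Figure D4:**
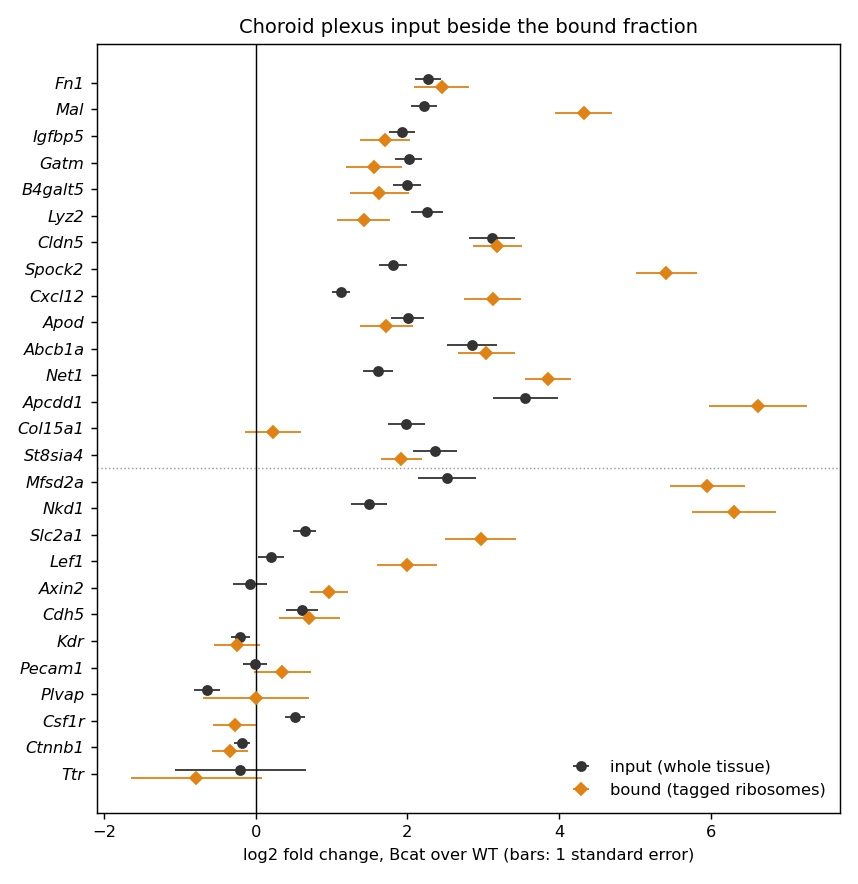
Log2 fold changes of Bcat over WT (x axis, bars of 1 standard error) are shown for 15 of the genes called higher in input (above the dotted line; Gm14288 is left out) and 12 reference genes (below it), with circles for input and diamonds for bound. Spock2, Apcdd1, Mfsd2a and Nkd1 have bound values above 5 and input values between 1.496 and 3.56, whereas Col15a1 lies at 1.98 in input and 0.22 in bound.

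Cortex input was used as the other whole tissue of the same genotypes. There 1357 genes were higher in Bcat (8.44%) and 544 lower (3.38%), and the difference between the tissues' effects passed the same criteria for 384 genes in the direction of choroid plexus (2.39%) and 914 in the other (5.68%). The test of the difference shares its choroid plexus libraries with the comparison above, and it called 14 of the 16 genes higher in choroid plexus, the exceptions being Lyz2 and Gm14288. Cldn5 differed by 2.11 (edgeR adjusted p = 0.0174) and Apcdd1 by 3.57 (edgeR adjusted p = 0.00771) on the log2 scale. Because sex differs between the cortex groups, the effect of the allele and that of sex cannot be told apart in these differences, and the choroid plexus pools had a sex makeup of their own.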

How the data were processed

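The authors amplified cDNA and sequenced it in 75-cycle single-end runs, then ran Salmon (0.10.2 in the submitters' processing notes) on Ensembl release 92 transcripts of GRCm38, with bias corrections that can move reads between transcripts. The expected count (estimated count of reads, not normalized), the TPM and the effective length of each transcript are as deposited by the authors. Transcripts were joined into genes by GENCODE M21 (130338 of 130740 matched), and gene sums of counts were rounded. The effective length entered the length offset only, and the authors' EBSeq test was not run here. Genes were tested with edgeR 4.0.16 in R 4.3.3 (TMM, filterByExpr, quasi-likelihood, 1 coefficient per group, Benjamini-Hochberg adjustment) over the 8 input libraries, so that cortex shares in the estimate of the spread, and separately over the 8 bound libraries. Calls required 2-fold or more and an adjusted p below 0.05. The script was tested on simulated data. The alternatives were DESeq2 1.42.0, RLE scaling, no low-count filter, no minimum fold, a replicate block, fits of 4 or all 16 libraries, the length offset, leaving out each library, and pseudocounts of 0.1 and 1 on log2 TPM. A crossed block and a neuronal covariate were chosen after seeing the data.

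Named genes are those called (up to 12 a direction by smallest p, if protein-coding, at 1 TPM or more and without overlap in TPM), 25 reference genes and, in each list, up to 4 called genes or the gene with the smallest p. Gatm, St8sia4, Gm14288, Slc7a5, Spp1, Ddx3y, Lcn2, Timp1, Cxcl1, Saa3, Flt3, Cd163, Pf4, Lyve1 and the genes of the 3 added lists (sterol synthesis, LXR targets, microglia) were named after their values were seen. The members and the other 31 lists were chosen with earlier results of these data known. List medians did not move when genes with 0 reads in WT were set at the floor of 3 reads. Choroid plexus replicates are pools of animals. The p-values rest on a spread estimated with the cortex libraries, and so not on that between the choroid plexus pools alone. Some genes, among them the one called lower, are not reported here. Promoters came from RefSeq, and figures were drawn with matplotlib 3.10.9.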

Additional observations from a re-analysis of the deposited data

Results flagged for a closer look

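The difference between Bcat and WT differed between choroid plexus and cortex input, by the edgeR test of that difference and at 2-fold or more, for 20 of the genes described, and each value is the log2 fold change in choroid plexus minus that in cortex. Genotype and sex cannot be told apart in the cortex libraries. Higher in choroid plexus were Fn1 by 1.504, Mal by 2.26, Igfbp5 by 2.39, Gatm by 2.09, B4galt5 by 2.61, Cldn5 by 2.11, Spock2 by 1.73, Cxcl12 by 1.37, Apod by 1.24, Abcb1a by 1.99, Net1 by 1.86, Apcdd1 by 3.57, Col15a1 by 1.90, St8sia4 by 2.08, Mfsd2a by 2.09 and Slc35f2 by 7.90, the last being a fitted value for a gene with 0 reads in WT choroid plexus and no bound on its change. Lower in choroid plexus were Plvap with -2.59, Pecam1 with -3.99, Ttr with -5.90 and Sostdc1 with -2.08. For these 4 the value comes mainly from cortex, where Pecam1 was at 4.51 and 6.29 CPM in WT and 85.5 and 86.1 CPM in Bcat, and Ttr at 5.13 and 2.81 CPM in WT and 30.4 and 382 CPM in Bcat. Ttr and Sostdc1 are abundant in choroid plexus, and the part of its tissue in the cortex libraries was not tested.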

How the results depend on the processing

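The number of genes called in choroid plexus input differed between settings. Against 16 higher and 1 lower, DESeq2 called 111 and 18, no filter on low counts 300 and 118, and the fit of the 4 libraries alone 42 and 4. The length offset called 0 and 0 (smallest adjusted p 0.114, with 709 and 418 at an unadjusted p under 0.05), all 16 libraries 15 and 0, RLE 15 and 1. The replicate block called 0 and 0 (623 and 373 at an unadjusted p under 0.05). Deviations of same-numbered Bcat and WT choroid plexus libraries correlated with r = -0.27, so the numbers do not pair the samples, and the crossed block called 4 and 0. The neuronal covariate, which leaves 1 residual degree of freedom, called 351 and 51. The causes were not tested. Leaving out 1 library gave 0 to 30 higher and 0 to 2 lower. For the difference from cortex (384 and 914), DESeq2 called 596 higher, no filter 785 and 1426, no minimum fold 646 higher, and leaving out 1 library 193 to 450 higher and 501 to 941 lower. In cortex (1357 and 544), no minimum fold gave 2212 and 1819, and leaving out 1 library 851 to 1285 and 341 to 670. In bound (110 and 33), DESeq2 gave 366 and 255, no filter 461 and 413, the 4 libraries alone 186 and 74, the block 18 lower, and leaving out 1 library 66 to 115 and 18 to 62. Log2 fold changes near 0 changed sign without being called. Axin2 came to 0.0022 with the neuronal covariate and ranged from -0.163 to 0.00694 when 1 library was left out. Pecam1 came to 0.0208 with all 16 libraries, 0.0399 with the covariate and 0.0303 in the 4-library fit, and ranged from -0.112 to 0.0899 when 1 library was left out. Kcnj13 came to 0.0555 with the length offset, and leaving out 1 library gave -0.227 to 0.0618 for Otx2 and -0.277 to 1.034 for Wif1. With 7771798 to 11101783 reads, of which the 10 leading genes take 46.2% to 48.5%, genes of rare cells rest on few reads.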

Other observations

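Genes of sterol and lipid synthesis lay mostly below 0 in Bcat. In a list of 27 such genes that was drawn up after values were seen, and so carries no test, 25 of the 26 with enough reads were below 0, with a median of -0.62, or -0.68 without Bcat replicate 2, and in 24 both Bcat values were below both WT values, against 24% of all genes. At an unadjusted p under 0.05, 20 were lower (2.95% of all genes were). None of the 26 was called by edgeR in the fit of 8 libraries, and 4 were by DESeq2, which called 0.112% of all genes lower. Their summed level was 1381 and 1254 CPM in WT and 906 and 901 CPM in Bcat. Scd1, which introduces double bonds into fatty acids, was at 153 and 120 CPM in WT and 64.1 and 55.2 CPM in Bcat (log2 fold change -1.19, edgeR adjusted p = 0.113). Sqle, the epoxidase of the first oxygenation step of sterol synthesis, was at 34.9 and 35.4 CPM in WT and 19.2 and 15.7 CPM in Bcat (log2 fold change -1.004, edgeR adjusted p = 0.162). Srebf2, which encodes the transcription factor that activates these genes, was at 97.0 and 90.0 CPM in WT and 59.0 and 55.8 CPM in Bcat (log2 fold change -0.70, edgeR adjusted p = 0.108).

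Abca1, the exporter of cholesterol from cells, was at 191 and 194 CPM in WT and 345 and 358 CPM in Bcat (log2 fold change 0.87, edgeR adjusted p = 0.0525). It leads a list of 8 targets of the sterol sensor LXR, also drawn up after values were seen, in which 7 were above 0 and the median was 0.27. In the bound fraction the sterol list had a median of -0.74, with 1 gene called lower (0.197% of all genes were). In WT choroid plexus the list had a median log2 ratio of bound over input of -0.68. Letters of the sterol regulatory element, TCACNCCAC on either strand, were found in 1 of the 19 listed genes with a RefSeq promoter, Hmgcs1, and in 1.44% of all genes with a promoter.

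Among the remaining lists, 5 erythrocyte genes tested had a median of -0.52, 9 astrocyte genes -0.08, 10 meningeal genes 0.21 and 15 genes of hypoxia and stress -0.01. The 7 cell cycle genes with enough reads to be tested, of 14 listed, had 0.97, and 6 microglial genes 0.25. None of these lists held an edgeR call. Without Bcat replicate 2 the microglial median was -0.17, with 2 of the 6 genes above 0 instead of 6. The astrocyte, meningeal, hypoxia and cell cycle medians were then -0.17, 0.32, -0.16 and 0.71. Their genes with the smallest p were Hba-a2, Gja1, Pi16, Adm and Top2a for the first 5, with log2 fold changes of -0.65, 0.83, 3.25, -1.12 and 3.10. Top2a, a topoisomerase of dividing cells, rests on 1 and 4 reads in WT and 23 and 21 in Bcat. Such a gene can pass the filter on low counts only through libraries in which it is high, so that the cell cycle median is no result.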
